A study of Mus musculus with 4 samples.

Results

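Zfp36, Zfp36l1, Zfp36l2, Btg1 and Btg2, 5 genes for regulators of messenger RNA decay, were followed through single CD4 T cells taken during graft-versus-host disease (GVHD) in mice. They were taken by name, and all 5 were present among the 31053 genes of both expression libraries and were counted in both. The labels describe TS1 transgenic (Tg) CD4 T cells, whose strain is given as BALB/c RAG2-/- TS1 Tg, sorted 4 weeks post-transplantation from spleen, colon, skin and the intraepithelial and lamina propria lymphocytes of the small intestine. TS1 is a transgenic T cell receptor, and RAG2 is needed to rearrange antigen receptor genes. Cells of the 5 compartments were pooled before droplet sequencing in each of 2 replicates, and the labels give the same transgene, strain and time for both. Some compared cells held markers of other cell types, as given below, and whether those cells carry the transgene and strain was not tested. No other genotype, treatment or time was sampled, the recipient strain and the number of mice behind a replicate are not given in the sources used here, and the hashtag matrices supplied here list genes and 0 hashtags, so no cell could be given a tissue. The comparisons are therefore between cells of the same libraries, split by whether a unique molecular identifier (UMI, 1 counted RNA molecule) of a marker gene was seen.

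The members belong to 2 families. ZFP36 (tristetraprolin), ZFP36L1 and ZFP36L2 are zinc finger proteins that bind AU-rich elements in the 3' untranslated regions of cytokine and early-response mRNAs and recruit the CCR4-NOT deadenylase, which shortens the poly(A) tail and starts decay. In T cells of mice they are known to restrain cytokine production and proliferation, and ZFP36 is inactivated by phosphorylation through the p38 and MK2 kinases. BTG1 and BTG2 are antiproliferative proteins that bind the CNOT7 and CNOT8 deadenylases, and in mice they are known for keeping T cells quiescent. Btg2 is also known as an early-response and p53 target gene.

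AU-rich sites of the kind the ZFP36 family binds are shown because the 3 cytokine genes that define classes below, and 4 of the members themselves, carry them. In GENCODE vM21 (GRCm38, mm10), the heptamer TATTTAT was searched on the sense strand of the longest 3' untranslated region annotated for each protein-coding gene. It occurred in 27.6% of 21039 protein-coding genes, and the longer form TTATTTATT, which holds the heptamer, in 7.65%. The untranslated region held 3 heptamers in Zfp36, 3 in Zfp36l1, 3 in Zfp36l2, 1 in Btg2 and 0 in Btg1, against 9 in Csf2, 4 in Ifng and 1 in Il13. One site of each gene follows, 5' to 3' in transcript sense, with the heptamer in capitals.
Zfp36 (chr7:28376953-28376977, minus strand): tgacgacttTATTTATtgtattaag
Zfp36l1 (chr12:80108169-80108193, minus strand): ctgttggatTATTTATtttagaaat
Zfp36l2 (chr17:84184916-84184940, minus strand): tatttaactTATTTATtatcttgtg
Btg2 (chr1:134077251-134077275, minus strand): atgaagagcTATTTATacatgtttt
Ifng (chr10:118445325-118445349, plus strand): atctaaaccTATTTATtaatattta
Csf2 (chr11:54247331-54247355, minus strand): ttaaatattTATTTATttatttatt
Il13 (chr11:53631743-53631767, minus strand): tcttgatctTATTTATtatggttgt
These matches are letters in a sequence, and no binding was measured.

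The promoters of Zfp36 and Btg2 are printed because early-response genes were among their most alike genes in the likeness given below. That of Btg1 is printed for comparison. Each line gives the 250 bases before the RefSeq start (GRCm38.p6, 5' to 3' in the gene's sense), with matches in capitals. The search covered the cyclic AMP response element TGACGTCA, the AP-1 motif TGANTCA, the FOXO motif TGTTTAC, the EGR motif GCGNGGGCG (both strands) and the serum response element CArG box. RefSeq matched 4 of the 5 members, with Zfp36l2 not used here.
Zfp36 (chr7:28379229-28379478, minus strand): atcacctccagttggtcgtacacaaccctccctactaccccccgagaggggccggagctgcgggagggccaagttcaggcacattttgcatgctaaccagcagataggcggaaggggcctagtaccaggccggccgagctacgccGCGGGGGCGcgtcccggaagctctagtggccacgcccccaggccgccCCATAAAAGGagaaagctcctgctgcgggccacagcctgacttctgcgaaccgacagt
Btg2 (chr1:134079156-134079405, minus strand): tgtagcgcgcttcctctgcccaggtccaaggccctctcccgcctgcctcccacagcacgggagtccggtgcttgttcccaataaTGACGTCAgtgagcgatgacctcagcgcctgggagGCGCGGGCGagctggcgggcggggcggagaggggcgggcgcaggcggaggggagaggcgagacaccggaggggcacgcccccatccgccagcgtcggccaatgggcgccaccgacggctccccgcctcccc
Btg1 (chr10:96616751-96617000, plus strand): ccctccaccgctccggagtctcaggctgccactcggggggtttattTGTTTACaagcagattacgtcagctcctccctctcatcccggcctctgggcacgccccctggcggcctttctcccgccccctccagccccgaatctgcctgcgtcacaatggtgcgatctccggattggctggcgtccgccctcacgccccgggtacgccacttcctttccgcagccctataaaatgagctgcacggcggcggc
Zfp36 held an EGR match 105 bases and a CArG box 58 bases before the start. Btg2 held a cyclic AMP response element at 166 bases and an EGR match at 131 bases. Btg1 held a FOXO match at 204 bases. Zfp36l1, not printed, held an AP-1 match at 129 bases. Of 32851 such windows, 1.55% held the cyclic AMP response element, 6.75% AP-1, 3.17% FOXO, 4.7% EGR and 1.47% a CArG box.

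The genes lie at chr7:28376784-28380253 (minus strand), chr12:80107754-80113013 (minus), chr17:84183931-84187947 (minus), chr10:96617006-96622809 (plus) and chr1:134075170-134079120 (minus) in the same GENCODE build. Zfp36, Zfp36l1 and Zfp36l2 overlap annotated genes on the opposite strand (Gm44710, Gm26669 and AC132455.1), and whether the counting used strand is not given in the sources used here, so reads of the strands may not be told apart. Btg1 has annotated pseudogene copies, Btg1-ps1 and Btg1-ps2, which were listed at 0 UMIs in both libraries, so reads shared with them could not be seen.

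T cells were barcodes with at least 1000 UMIs and 500 genes, at most 10% mitochondrial UMIs and at least 1 UMI of Cd3d, Cd3e or Cd3g, which left 18972 cells with 71346839 UMIs in replicate 1 and 15857 cells with 79261309 UMIs in replicate 2 (medians of 2689 and 3702 UMIs per cell). Each cell was thinned to 1500 UMIs, which 15260 and 14839 cells reached, so that detection was compared at equal depth. Cd4, which marks the labelled lineage, stood at 199.97 and 202.59 CPM (UMIs per 1000000 UMIs) in cells with Itgae and Cd8a and at 195 and 208 CPM in the others. Markers of other cell types were also present: neutrophil markers summed to 1618 and 2637 CPM over all cells, erythroid markers to 101 and 137 CPM and myeloid markers to 355 and 432 CPM. The libraries shared 578 barcodes, of which 449 in replicate 1 and 320 in replicate 2 reached 1500 UMIs, 2.94% and 2.16% of the thinned cells. Of the 578, 497 differed more than 5-fold in depth between the libraries. The 578 had medians of 15709 UMIs in replicate 1 and 1725.5 UMIs in replicate 2, and results were also computed without them.

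At 1500 UMIs a cell, Btg1 was seen in 92.7% and 93.7% of cells, Zfp36l2 in 46% and 39.7%, Btg2 in 37.6% and 38.9%, Zfp36 in 21.1% and 21.5% and Zfp36l1 in 16.1% and 18.3%, in replicates 1 and 2. Before thinning the shares were 98% and 98.4%, 61.8% and 62.4%, 54.9% and 65%, 34.7% and 41.7% and 27.5% and 37.6% in the same order. The summed levels were 3285 and 3539 CPM for Btg1, 604 and 483 CPM for Zfp36l2, 391 and 411 CPM for Btg2, 191 and 197 CPM for Zfp36 and 134 and 156 CPM for Zfp36l1. The replicates lay close together for each gene, farthest apart for Zfp36l2. Barcodes under 100 UMIs, which hold free RNA, gave 2306 and 2463 CPM of Btg1, 425 and 360.3 CPM of Zfp36l2, 243 and 305 CPM of Btg2, 189 and 187 CPM of Zfp36 and 111 and 120.0 CPM of Zfp36l1. For Zfp36 the free RNA level was close to that in cells and for the other 4 it was lower, and its part in a single cell's UMI was not tested. In the 81 and 78 of the thinned cells with at least 50 neutrophil-marker UMIs among their 1500 (median depths before thinning 3893 and 10698 UMIs), Btg1 was seen in 75.3% and 53.8%, Zfp36l2 in 35.8% and 19.2%, Btg2 in 22.2% and 17.9%, Zfp36 in 24.7% and 23.1% and Zfp36l1 in 6.17% and 2.56%. At the same 1500 UMIs, the share of Zfp36 there was no lower than in all cells, and those of the other 4 were lower. Neutrophils are known to express Zfp36, and no cell type known to lack these genes was at hand, so no share could be set as background.

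Every cell was then put in 1 of 6 classes by the first that applied: at least 2 of 12 cell cycle genes, Tcf7, both Itgae and Cd8a, Il13 or Csf2, Ifng, or none of these. Tcf7 encodes TCF-1, a transcription factor of naive, memory and stem-like T cells. Itgae encodes CD103, an integrin of intraepithelial T cells, where CD4 cells with CD8 alpha are also found. Zfp36l2 had 965 and 758 CPM in the Tcf7 class, 749.8 and 529 CPM in the Ifng class, 709 and 595 CPM in the Il13 or Csf2 class, 463 and 416 CPM in the cycling class and 208 and 166 CPM in the Itgae-Cd8a class, against 649 and 531 CPM in the cells of none. Its lowest class stood below all others in both replicates, and within each replicate the Tcf7 class stood highest. Zfp36 had 266 and 266 CPM in the Ifng class, 293 and 234 CPM in the Il13 or Csf2 class, 249 and 264 CPM in the Tcf7 class, 138 and 142 CPM in the cycling class and 86.4 and 106 CPM in the Itgae-Cd8a class, against 170.2 and 167 CPM in the cells of none. The Il13 or Csf2 class overlapped both the Ifng and the Tcf7 class, and all 3 lay above the rest.

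Btg2 had 623 and 594 CPM in the Il13 or Csf2 class, 513 and 484 CPM in the Tcf7 class, 473 and 493 CPM in the Ifng class, 275 and 304 CPM in the Itgae-Cd8a class and 251 and 305 CPM in the cycling class, against 387 and 363 CPM in the cells of none. The Il13 or Csf2 class stood apart at the top, the Tcf7 and Ifng classes overlapped, and so did the Itgae-Cd8a and cycling classes below the cells of none. Btg1 had 4140.3 and 4167 CPM in the Ifng class, 3947 and 3854 CPM in the Tcf7 class, 3687 and 3696 CPM in the Il13 or Csf2 class, 3128 and 3346 CPM in the Itgae-Cd8a class and 2007 and 2211 CPM in the cycling class, against 3331 and 3496 CPM in the cells of none. The Ifng class stood highest and the cycling class far below all others in both replicates. Zfp36l1 had 209 and 185 CPM in the Tcf7 class, 195 and 169 CPM in the Il13 or Csf2 class, 148 and 175 CPM in the Ifng class, 136 and 170.0 CPM in the Itgae-Cd8a class and 79.2 and 113 CPM in the cycling class, against 133 and 141 CPM in the cells of none. Only its cycling class lay clear of the others, since neighbouring classes overlapped between replicates.

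**Figure D1:**
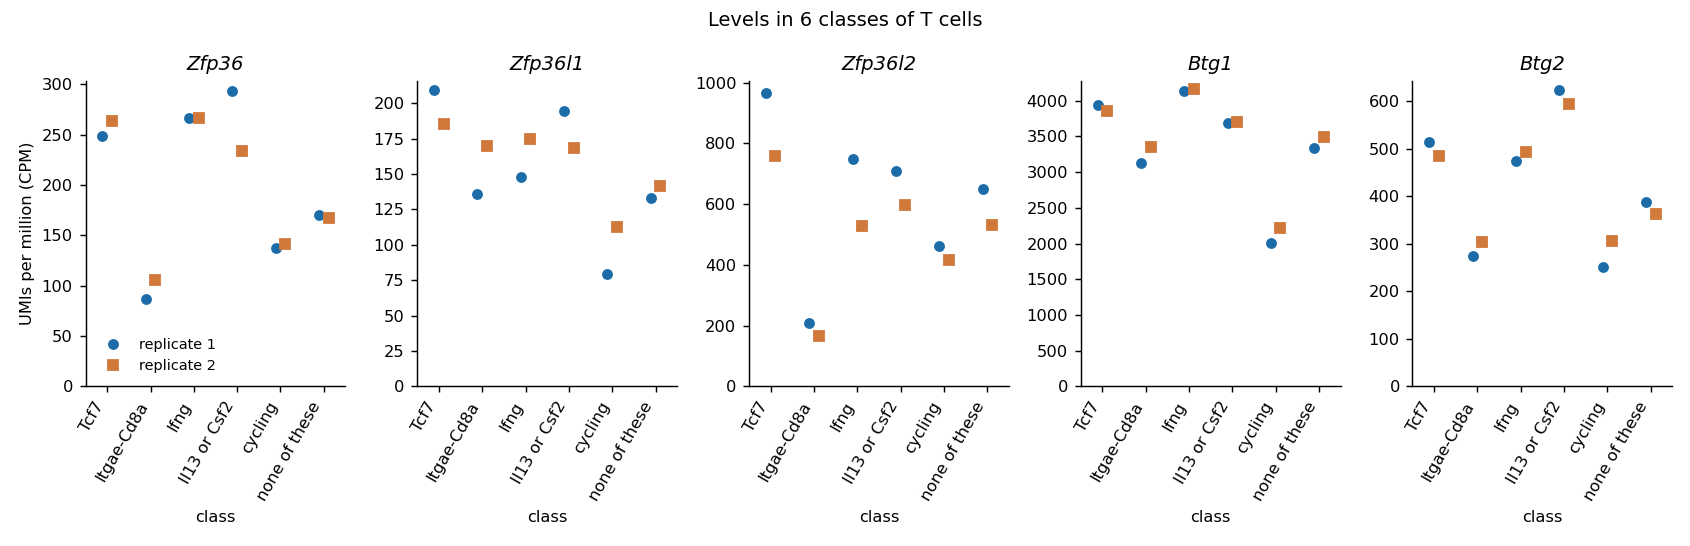
Level of each gene (CPM, linear axis from 0) in the 6 classes of T cells, 1 point per replicate, with the cells of no class at the right. Zfp36 and Zfp36l2 are lowest in the Itgae-Cd8a class, at 86.4 and 106 CPM and 208 and 166 CPM, while Btg1 and Zfp36l1 are lowest in the cycling class.

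For tests, cells were split by 1 criterion at a time, UMIs were summed per replicate and side of the split, and all genes were compared with edgeR's quasi-likelihood test with the replicate as a block. Such a split rests on 4 sums with 1 residual degree of freedom. With this block, its p-values rest on how the difference varies between the 2 replicates and on variance shared across genes. They do not measure the spread of levels between replicates. An SE can be smaller than the gap between the 2 replicate differences, as for Zfp36l1 in the Tcf7 split (0.66 and 0.28, SE 0.078). The same cells enter several splits, so the splits are not independent of one another. Levels of genes below are CPM as plain shares of UMIs without the genes that define the split, replicate 1 then replicate 2. Differences are log2 of detected over undetected cells, scaled by edgeR's trimmed mean, so they can depart from the ratio of the printed levels. A gene was called at an adjusted p under 0.05. Whether the sides of a split overlapped was computed for the members, and the share of all genes without overlap was not. Fewer cells with a transcript and less transcript per cell cannot be told apart in such sums alone. Some shares of cells with a UMI are therefore given for the Itgae-Cd8a and cycling splits. Such a share also falls when each cell holds less transcript.

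All 5 members were higher in Tcf7-detected cells, which made up 6.04% and 6.11% of cells. Zfp36l2 had 920.4 and 742 CPM in Tcf7-detected cells, against 583 and 466 CPM in undetected cells, a difference of 0.65 ± 0.04 (SE; edgeR adjusted p = 6.01e-14). Zfp36l1 had 206 and 189 CPM against 129 and 154 CPM in undetected cells, a difference of 0.47 ± 0.078 (edgeR adjusted p = 5.45e-05). The sides of the split did not overlap for either gene, although Zfp36l1 differed more in replicate 1 (0.66) than in replicate 2 (0.28). Zfp36 had 240.2 and 257 CPM in Tcf7-detected cells, against 188 and 193 CPM (0.37 ± 0.064, edgeR adjusted p = 9.64e-05). Btg2 had 488 and 497 CPM against 384 and 406 CPM in undetected cells (0.31 ± 0.048, edgeR adjusted p = 2.19e-05). Btg1 moved least, with 3708 and 3812 CPM against 3258 and 3522 CPM in undetected cells (0.14 ± 0.024, edgeR adjusted p = 0.000121). These are 5 of 5 called, against 8.24% of the 11267 genes tested. In size, the difference of Btg1 lay above that of 68.6% of genes and that of Zfp36l2 above 94.6%.

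Among the partners, 1 of 11 CCR4-NOT subunits (Cnot6l) and 0 of 3 BTG/TOB relatives (Btg3, Tob1, Tob2) were called higher. Of 14 genes of quiescent and recirculating T cells, 7 rose, among them Klf2 and S1pr1, and 0 fell (list median 0.65, all genes -0.0032). Of 17 immediate-early genes 9 rose, Ier5 by 0.43 ± 0.054 and Fosb by 0.37 ± 0.057 (edgeR adjusted p = 4.37e-07 and 1.63e-05). The AU-rich list split, with Fos and Nfkbiz higher and 5 of 16 genes (Ccl3, Ccl4, Csf2, Ifng and Il10) lower. Neutrophil markers fell with the split in 8 of 8 cases, summing to 133 and 451 CPM in Tcf7-detected cells (Elane at 0 in both) and 1713 and 2779.5 CPM in undetected cells, and 11 of 12 cycling genes fell. Without cells with 3 or more UMIs of other lineages the members differed by 0.13 to 0.66. With cycling cells left out, Btg1 was no longer called (0.062, edgeR adjusted p = 0.278). Thinned to 1000 UMIs, neither Zfp36 (0.21) nor Btg1 (0.061) was, and without the replicate block only Zfp36l2 was.

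In cells with both Itgae and Cd8a (14.7% and 15.3% of cells), 4 of the 5 members were lower and Zfp36l1 was not called. Zfp36l2 had 223 and 166 CPM in Itgae-Cd8a cells, against 669.8 and 540.1 CPM in all other cells, a difference of -1.61 ± 0.052 (edgeR adjusted p = 1.3e-197). Zfp36 had 89.8 and 102 CPM in Itgae-Cd8a cells, against 209 and 214 CPM in the others (-1.11 ± 0.063, edgeR adjusted p = 5.41e-68). Both replicates of these cells lay far below both replicates of the others. Btg2 had 260.3 and 293 CPM in Itgae-Cd8a cells and 413 and 433 CPM in the others (-0.58 ± 0.05, edgeR adjusted p = 2.61e-29). Btg1 had 2865 and 3198 CPM in Itgae-Cd8a cells and 3360.3 and 3604 CPM in the others (-0.17 ± 0.035, edgeR adjusted p = 7.95e-06). The share of cells with a Btg1 UMI was not lower, at 92.8% and 94% of Itgae-Cd8a cells and 92.6% and 93.7% of the others. For Zfp36l2 it was 23.5% and 19.4% of Itgae-Cd8a cells, against 49.9% and 43.4% of the others. Zfp36l1 had 123 and 164 CPM in Itgae-Cd8a cells and 136 and 155 CPM in the others, which overlapped (0.0076 ± 0.058, edgeR adjusted p = 0.94). The difference had opposite signs in the replicates, -0.10 in replicate 1 and 0.11 in replicate 2. These are 4 of 5 called, against 34.9% of genes in this split. In size, 32.9% of genes lay below the difference of Btg1 and 4.29% below that of Zfp36l2.

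The relatives Btg3, Tob1 and Tob2, which share the BTG domain, all fell in Itgae-Cd8a cells, Tob1 to 30.0 and 32.2 CPM against 57.5 and 63.2 CPM in the others (-0.92 ± 0.1, edgeR adjusted p = 8.09e-19). All 17 immediate-early genes were lower (list median -0.76, all genes -0.0027), with Dusp2 at a log2 difference of -1.56 ± 0.05 and Nfkbia at -1.53 ± 0.044 (edgeR adjusted p = 2.23e-198 and 6.33e-251). All 16 measured AU-rich mRNAs were lower as well (median -1.41), including Ifng, Tnf and Csf2, and of the 9 genes of the kinase list 4 were lower (Mapk14 for p38, Mapkapk2 for MK2, Mapkapk3 and the phosphatase Dusp1) and Mapk3 was higher. Of 11 CCR4-NOT subunits, Cnot3 was higher and Cnot7 lower. Of 15 decay machinery genes, 5 were higher (Edc3, Exosc3, Lsm1, Pabpc1 and Pabpc4) and Ddx6 was lower. Gzma, Gzmb, Prf1 and 3 others of 12 effector genes were higher, and Eomes, Gzmk, Havcr2 and Tbx21 were lower. Neutrophil markers summed to 629 and 403 CPM in Itgae-Cd8a cells and 1789 and 3039.7 CPM in the others (8 of 8 lower). Without cells with other-lineage UMIs, Zfp36l2 differed by -1.62 and Zfp36 by -1.11, as much as with them. Without the replicate block Btg1 was not called (edgeR adjusted p = 0.157).

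**Figure D2:**
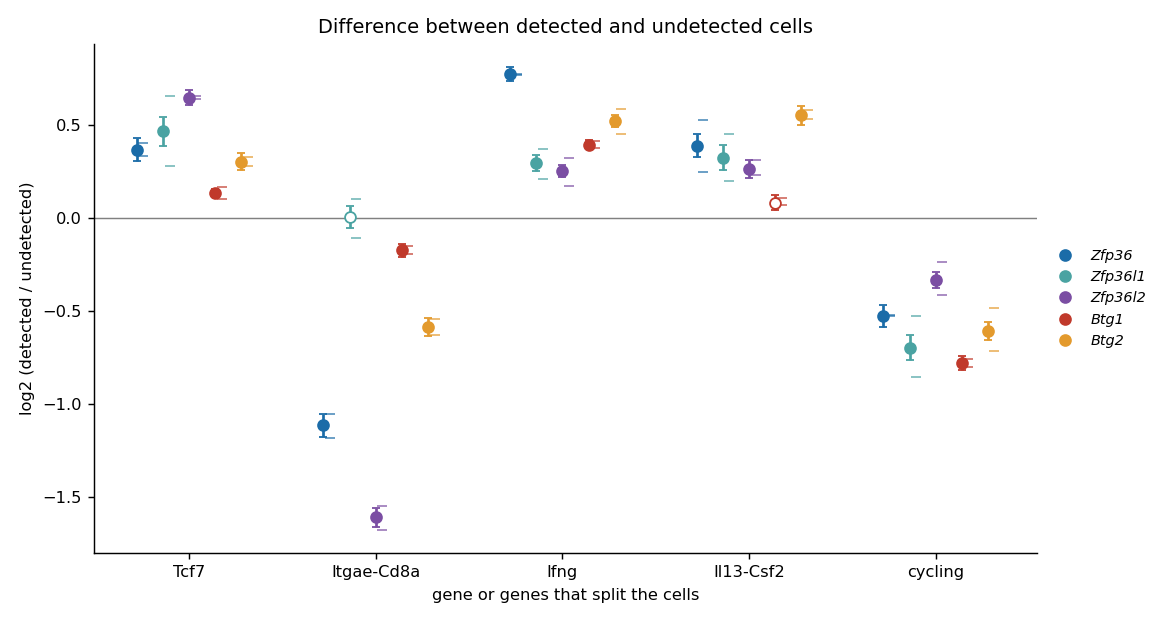
Difference of each gene between detected and undetected cells (log2, error bars 1 SE of the edgeR fit, short dashes the 2 replicates on their own, open circles not called) for the 5 splits of cells. The Itgae-Cd8a split holds the largest differences, -1.61 for Zfp36l2 and -1.11 for Zfp36, beside 0.0076 for Zfp36l1, and all 5 genes lie below 0 for cycling.

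Cells with an Ifng UMI (45.4% and 49%) had more of all 5 members. Zfp36, which is known to act on cytokine mRNAs, had 244 and 247 CPM in Ifng-detected cells, against 148 and 149 CPM in undetected cells, a difference of 0.78 ± 0.039 (edgeR adjusted p = 1.04e-85). Btg2 had 452 and 489.8 CPM in Ifng-detected cells, against 340.2 and 337 CPM (0.52 ± 0.032, edgeR adjusted p = 2.12e-57). Btg1 had 3752 and 3954 CPM in Ifng-detected cells, against 2903 and 3149 CPM (0.40 ± 0.025, edgeR adjusted p = 1.39e-55). The sides did not overlap for these 3 genes or for Zfp36l1. Zfp36l1 had 143 and 174 CPM in Ifng-detected cells and 127 and 139 CPM in undetected cells (0.30 ± 0.042, edgeR adjusted p = 5.84e-11). Zfp36l2 had 669 and 505 CPM in Ifng-detected cells and 551 and 462 CPM in undetected cells (0.25 ± 0.03, edgeR adjusted p = 7.73e-16). Zfp36l2 was higher within each replicate, but replicate 2 of the Ifng-detected cells lay below replicate 1 of the undetected cells. In this split 15.0% of genes were called.

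Without thinning, Zfp36l2 was not called (-0.025, edgeR adjusted p = 0.762), and Zfp36 differed by 0.48. Without the replicate block neither Zfp36l1 (edgeR adjusted p = 0.273) nor Zfp36l2 (edgeR adjusted p = 0.506) was called. Immediate-early genes rose with Ifng in 17 of 17 cases (median 0.69, all genes 0.0011), Nr4a1 by 1.03 ± 0.045 (edgeR adjusted p = 3.43e-112), and so did Btg3, Tob1 and Tob2. Of 16 AU-rich mRNAs other than Ifng, 14 were higher, Csf2 by 1.46 ± 0.043 (edgeR adjusted p = 4.87e-235), and Il4 was lower. Of the kinase list, Dusp1 and Mapkapk2 (MK2) rose. Cnot1, the CCR4-NOT scaffold, and the deadenylase Cnot7 were called among 11 subunits, both higher. Of 12 effector genes 9 were higher, and Gzma and Gzmb were lower. Neutrophil markers summed to 824 and 1123 CPM in Ifng-detected cells and 2276 and 4091 CPM in undetected cells (8 of 8 lower), and all 12 cycling genes were lower. Members differed by 0.25 to 0.78 without other-lineage cells and by 0.19 to 0.71 without cycling cells.

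Cells with Il13 or Csf2 (10.7% and 9.53%) showed 4 of the 5 members higher. Btg2 had 540.0 and 559 CPM in Il13 or Csf2 cells, against 373 and 396 CPM in cells with neither (0.55 ± 0.049, edgeR adjusted p = 2.33e-19). Zfp36 had 256 and 225 CPM in Il13 or Csf2 cells, against 184 and 194 CPM (0.39 ± 0.061, edgeR adjusted p = 6.21e-08). Both genes were higher in each replicate, Zfp36 by more in replicate 1. Zfp36l1 had 171 and 173 CPM in Il13 or Csf2 cells and 129 and 154 CPM in the rest (0.33 ± 0.067, edgeR adjusted p = 5.1e-05). Zfp36l2 had 675 and 575 CPM in Il13 or Csf2 cells and 595 and 473 CPM in the rest (0.27 ± 0.048, edgeR adjusted p = 2.47e-06). Btg1 had 3404 and 3630.0 CPM in Il13 or Csf2 cells and 3272 and 3531 CPM in the rest (0.085 ± 0.039, edgeR adjusted p = 0.12), and was not called. The sides overlapped for Zfp36l2 and Btg1. The call rate over all genes was 17.8%.

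Here 16 of 17 immediate-early genes rose (median 0.51, all genes -0.01), Atf3 by 2.03 ± 0.06 (edgeR adjusted p = 1.69e-65). Mapkapk2, Mapkapk3 and Dusp1 of the kinase list rose, and so did Btg3 and Tob1. Among AU-rich mRNAs, 10 of 14 were higher, with Il2 at 208 and 275 CPM in Il13 or Csf2 cells against 12.3 and 9.09 CPM in the rest, and Il10 was lower. The decay machinery list (decapping, exosome and poly(A)-binding genes) gave Pan3 higher and Dcp2, Lsm1 and Xrn1 lower among 15. Neutrophil markers summed to 801 and 595 CPM in Il13 or Csf2 cells and 1716 and 2852 CPM in the rest (8 of 8 lower). The members differed by 0.075 to 0.54 without other-lineage cells. DESeq2 did not call Zfp36l1 (adjusted p = 0.101), and without the replicate block neither Zfp36l1 nor Zfp36l2 was called.

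In cycling cells (21.8% and 14.2%) all 5 members were lower. Btg1 had 2015 and 2220.2 CPM in cycling cells, against 3642 and 3759.8 CPM in the rest, a difference of -0.78 ± 0.037 (edgeR adjusted p = 1.58e-93). Zfp36l1 had 79.5 and 113 CPM in cycling cells, against 149 and 163 CPM (-0.69 ± 0.067, edgeR adjusted p = 5.23e-24). Both lay clear of the rest in each replicate. Btg2 had 252 and 306 CPM in cycling cells and 429.6 and 429 CPM in the rest (-0.60 ± 0.049, edgeR adjusted p = 1.69e-33). Zfp36 had 138 and 142 CPM in cycling cells and 206 and 206 CPM in the rest (-0.52 ± 0.059, edgeR adjusted p = 1.36e-17). Zfp36l2 had 465 and 418 CPM in cycling cells and 643 and 494 CPM in the rest (-0.33 ± 0.045, edgeR adjusted p = 2.5e-12). A Btg1 UMI was seen in 82.4% and 78.9% of cycling cells, against 95.5% and 96.2% of the rest. The 5 calls stand beside 37.9% of all genes called, the highest rate of the 5 splits.

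Btg3, Tob1 and Tob2 were lower in cycling cells too, Tob1 at a log2 difference of -0.58 ± 0.094 (edgeR adjusted p = 8.11e-09), and so were 16 of 17 immediate-early genes (median -0.51, all genes -0.016). The CCR4-NOT list showed Cnot6, Cnot9 and Cnot11 higher and Cnot6l lower. Among other RNA-binding proteins, Elavl1, Hnrnpd, Khsrp and Ythdf2 were higher and Arid5a, Zc3h12a and Zc3h12d lower. Quiescence genes fell in 9 of 15 cases, among them Klf2 and Tcf7. Neutrophil markers were higher here, 7 of 8, summing to 3213 and 5135 CPM in cycling cells and 1173 and 2224 CPM in the rest, and erythroid markers (6 of 6) summed to 159 and 465 CPM in cycling cells and 85 and 82.5 CPM in the rest. All 8 T cell markers were lower. Cycling cells of replicate 2 were also deeper before thinning, with medians of 3173 and 6611 UMIs in cycling cells and 3135 and 3736 in the rest. Without other-lineage cells the members differed by -0.77 to -0.31, and without barcodes found in both libraries by -0.69 to -0.25. Without the deepest 8% of cells, Zfp36l2 was not called (-0.15, edgeR adjusted p = 0.158) and the other 4 differed by -0.56 to -0.33. Zfp36l2 was also not called without the replicate block (edgeR adjusted p = 0.0622).

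All 5 members were lower in cells with 4 or more of the 12 cycling genes than in cells with 0. Btg1 had 3690.3 and 3776 CPM at 0 genes, 3513 and 3717 CPM at 1, 2689 and 3316 CPM at 2, 1995 and 1825 CPM at 3 and 1522 and 1314 CPM at 4 or more. Both replicates were lower at each further gene, by most between 1 and 2 genes in replicate 1 and between 2 and 3 in replicate 2. Btg2 had 441 and 436 CPM at 0 genes, 398 and 413 CPM at 1, 328 and 440.3 CPM at 2, 263 and 225 CPM at 3 and 189 and 206 CPM at 4 or more. Zfp36 had 208 and 202 CPM at 0 genes, 201 and 214 CPM at 1, 163 and 209 CPM at 2, 142 and 121 CPM at 3 and 118 and 85.9 CPM at 4 or more. In replicate 2 these levels differed little up to 2 cycling genes and were lower from 3 on. For Zfp36l1 the levels were 155 and 165 CPM at 0 genes and 73.3 and 66.4 CPM at 4 or more, and for Zfp36l2 647 and 493 CPM and 411 and 360.0 CPM. With at least 3 cycling genes as the criterion, the differences were -1.18 to -0.51. Cells with 4 or more had medians of 6285 and 9955 UMIs before thinning, and cells with 0 had 3211 and 3796. Neutrophil markers summed to 3307 and 5673 CPM at 4 or more and 1220.1 and 2468 CPM at 0.

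**Figure D3:**
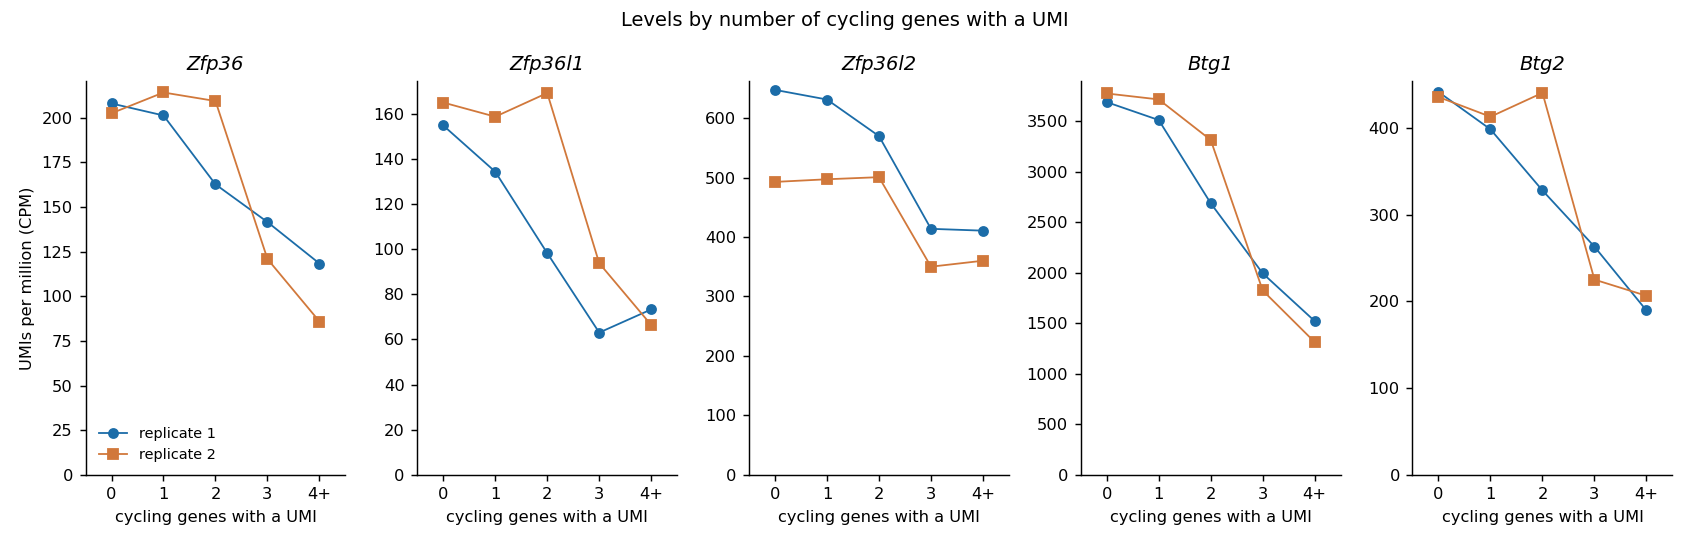
Level of each gene (CPM, linear axis from 0) in cells with a UMI of 0 to 4 or more of the 12 cycling genes, 1 line per replicate. Btg1 is at 3690.3 and 3776 CPM with 0 genes and at 1522 and 1314 CPM with 4 or more.

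Whether the Ifng difference was the same in Itgae-Cd8a cells and in all others was tested with an interaction term. Zfp36l2 had 285 and 182 CPM in Ifng-detected and 192 and 157 CPM in Ifng-undetected Itgae-Cd8a cells, and 716 and 549 CPM in Ifng-detected and 629.6 and 532 CPM in Ifng-undetected other cells. Zfp36 had 104 and 123 CPM and 82.6 and 88.6 CPM in Itgae-Cd8a cells with and without Ifng, and 261 and 264 CPM and 162 and 163 CPM in other cells with and without it. Both genes thus stood lower in Itgae-Cd8a cells whether or not Ifng was seen. The difference of differences was 0.27 ± 0.1 for Zfp36l2 and -0.29 ± 0.12 for Zfp36 (edgeR adjusted p = 0.479 and 0.603). For Btg1 it was -0.15 ± 0.048, for Btg2 0.017 ± 0.085 and for Zfp36l1 0.12 ± 0.11 (edgeR adjusted p = 0.372, 0.991 and 0.907). None of the 5 was called by edgeR or DESeq2, and edgeR called 0.296% of the 10816 genes tested. The unadjusted edgeR p was under 0.05 for 3 of the 5, but the share of all genes under that value was not computed. Zfp36l2 was called in a second random thinning (0.41, edgeR adjusted p = 0.0242) and without thinning (0.45, edgeR adjusted p = 0.0195).

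The members also varied with one another. Of cells, 3.66% and 3.14% held a UMI of none of the 5 genes, 35.9% and 35.7% of 2 and 1.26% and 1.22% of all 5. Btg2 was seen in 45.6% and 48.2% of Zfp36-detected cells, against 35.5% and 36.4% of undetected cells. Btg2 was seen in 39.1% and 40.1% of Btg1-detected cells, against 19.5% and 21% of undetected cells. When cells were split by 1 member, each of the other 4 was higher in the detected cells, in all 20 pairings and in both replicates. In the Zfp36 split the differences were 0.40 ± 0.048 for Zfp36l1, 0.49 ± 0.03 for Zfp36l2, 0.34 ± 0.02 for Btg1 and 0.64 ± 0.032 for Btg2 (edgeR adjusted p at most 4.42e-15, 9.95% of genes called). In the Zfp36l1 split they were 0.49 ± 0.039 for Zfp36, 0.33 ± 0.033 for Zfp36l2, 0.28 ± 0.021 for Btg1 and 0.41 ± 0.03 for Btg2 (edgeR adjusted p at most 1.03e-06, 7.23% called). Splitting by Zfp36l2 gave 0.53 ± 0.036 for Zfp36, 0.29 ± 0.04 for Zfp36l1, 0.27 ± 0.017 for Btg1 and 0.38 ± 0.029 for Btg2 (edgeR adjusted p at most 2.53e-11, 25.9% called), and splitting by Btg2 gave 0.69 ± 0.035 for Zfp36, 0.47 ± 0.039 for Zfp36l1, 0.43 ± 0.026 for Zfp36l2 and 0.37 ± 0.025 for Btg1 (edgeR adjusted p at most 3.47e-31, 18.8% called). The sides overlapped for Zfp36l2 in the Zfp36l1 split and for no other pairing, but the share of all genes without overlap was not computed. Over the 20 pairings, the differences lay above those of 83.8% (Btg1 in the Zfp36l2 split) to 98.2% (Zfp36 in the Btg2 split) of genes tested. Without thinning, Zfp36l2 (0.007) and Btg1 (0.084) were not called in the Zfp36l1 split, nor were Zfp36l1 (0.034) and Btg1 (-0.019) in the Zfp36l2 split, and without the replicate block 10 of the 20 calls were lost.

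The Btg1 split gave the largest differences, 1.15 ± 0.083 for Zfp36, 1.04 ± 0.09 for Zfp36l1, 1.04 ± 0.058 for Zfp36l2 and 1.29 ± 0.065 for Btg2 (edgeR adjusted p at most 1.3e-08, 31.0% of genes called). Zfp36 had 199.5 and 205 CPM in Btg1-detected cells, against 96 and 87.2 CPM in undetected cells, and Btg2 had 409 and 429 CPM in Btg1-detected cells, against 169.9 and 176 CPM. The undetected cells were few, 7.33% and 6.29%, and deeper, with medians of 3051 and 3769 UMIs in Btg1-detected cells and 6577 and 7455 in undetected cells. Neutrophil markers summed to 1126 and 1504 CPM in Btg1-detected cells and 7842 and 19533 CPM in undetected cells, and 8 of 8 were lower, as were 6 of 6 erythroid and 6 of 6 epithelial markers. All 12 cycling genes were lower and all 8 T cell markers higher in Btg1-detected cells. Without other-lineage cells the 4 differences were 1.00 to 1.22, and without the deepest 8% of cells 0.77 to 1.03.

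**Figure D4:**
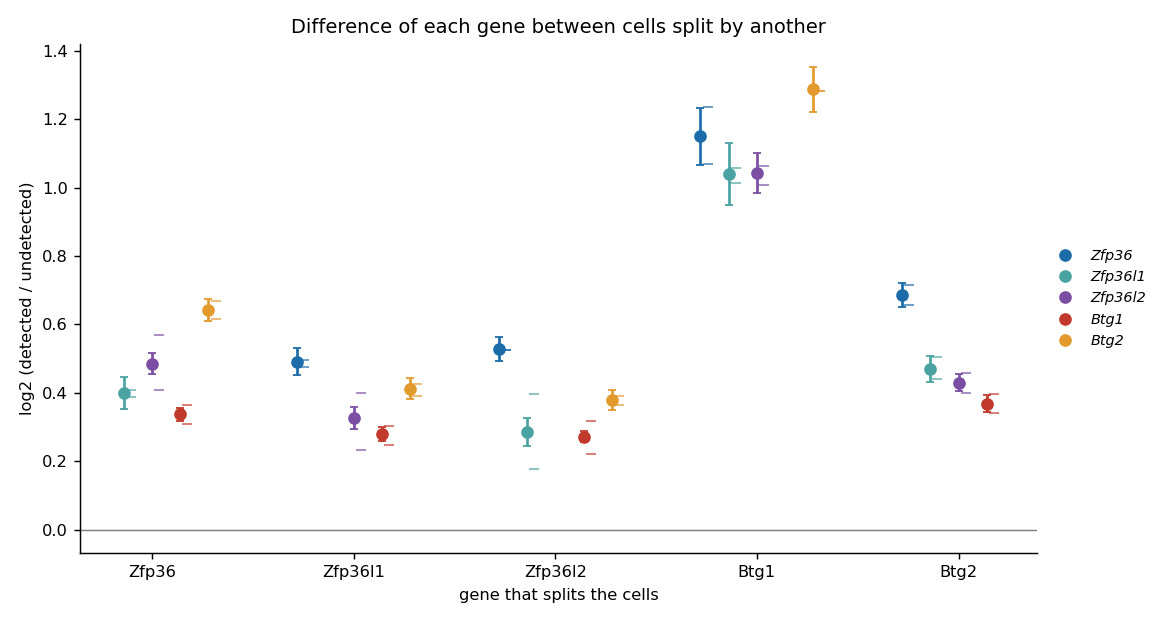
Difference of each gene between cells in which another of the 5 was detected and cells in which it was not (log2, error bars 1 SE of the edgeR fit, short dashes the 2 replicates). All 20 differences lie above 0, and those of the Btg1 split, 1.04 to 1.29, lie above the rest.

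Other genes moved with the members in these splits. Among called genes at 50 CPM or more, the largest rises with Btg2 were Atf3 (1.09 ± 0.044), Hspa1b (1.03 ± 0.039), Hspa1a (1.01 ± 0.034), Nr4a1 (0.95 ± 0.041), Rgs2 and Csf2, and all 17 immediate-early genes rose. The rises with Zfp36 were led by Retnlg, a neutrophil gene (1.75 ± 0.093), although the neutrophil list split, with 3 of 8 genes higher (Retnlg, S100a8 and S100a9) and 3 lower (Camp, Ltf and Ngp), median 0.054. Next came Atf3, the heat shock genes Hspa1a and Hspa1b, Klf4 and Nfkbia. Rises with Zfp36l1 were led by Il2 (1.01 ± 0.1), Nr4a3 (0.90 ± 0.089) and Egr1 (0.70 ± 0.064). Those with Zfp36l2 were Cxcr4 (1.16 ± 0.073), Gpr183 (1.08 ± 0.046), Lmna, Hspa1b, Gramd3 and Tcf7 (0.96 ± 0.067), and those with Btg1 were Vps37b, Neurl3, Dusp1, Tnfaip3, Ctla4 and Csrnp1 (1.57 ± 0.1 to 1.73 ± 0.09). Falls with Zfp36 and Zfp36l2 included Cd8a (-0.80 ± 0.035 and -1.38 ± 0.029), Gzma (-0.75 ± 0.016 and -1.42 ± 0.013) and Cd244. Of the AU-rich mRNA list, 14 of 17 genes rose and 1 fell with Btg2 (median 0.49), 12 of 17 rose and 0 fell with Zfp36l1 (0.49), 11 of 17 rose and 1 fell with Zfp36 (0.59), 9 of 16 rose and 1 fell with Btg1 (0.77), and 7 of 17 rose and 5 fell with Zfp36l2 (0.092), with medians over all genes of 0.0017 to 0.032. Of 12 p53 target genes, 2 rose and 0 fell with Btg2. All 12 cycling genes fell with Zfp36, Zfp36l1, Btg1 and Btg2, and 10 fell with Zfp36l2. Falls with Zfp36l1, Btg1 and Btg2 were led by neutrophil, Paneth cell or other non-T-cell genes such as Ngp, Ltf and Defa24.

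Likeness over the 6 classes and 2 replicates (12 sums, log2 of CPM plus 10, each replicate centred, 2764 genes) is given as Pearson's r and describes sums that share cells of the same libraries. Btg2 was most like Nfkbiz (0.98), Junb (0.98), Fos (0.98), Smad7 (0.98) and Vgll4 (0.98). Zfp36 was most like Ier5 (0.97), Coq10b, Gm12840, Dusp5 and Slc38a1 (0.97). For Zfp36l2 the list was Gramd3 (0.99), Ms4a4b, Cd28, Dok2 and H2-Q4 (0.98). For Btg1 it was Malat1 (0.96), Rbm39, Nufip2, Hcst and Eif4a2 (0.94), and for Zfp36l1 Cirbp (0.93), Arap2, Kpna4, Gm20186 and Znrf1 (0.89). Among the members themselves, Zfp36 and Btg2 (0.90), Zfp36 and Zfp36l2 (0.89) and Zfp36l1 and Btg1 (0.87) were closest, and Zfp36l1 and Zfp36l2 (0.34) least alike.

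Depth before thinning moved with the levels. Cells were ranked by depth and put in 4 equal bins, and Btg1 had 3514 and 4205 CPM in the shallowest, 4000.0 and 4173 CPM in the next, 3425 and 3329 CPM in the one above it and 2202 and 2449.9 CPM in the deepest. Zfp36l2 had 796 and 720.2 CPM in the shallowest, 713 and 484 CPM in the next, 516 and 419 CPM in the one above it and 390.2 and 308 CPM in the deepest. Zfp36l2 was lower in each deeper bin in both replicates, whereas Btg1 was lowest in the deepest bin and differed less among the other 3. Zfp36l1 had 125 and 175 CPM in the shallowest, 160.2 and 172 CPM in the next, 139 and 152 CPM in the one above it and 111 and 124 CPM in the deepest, which was lowest in the deepest bin too. Zfp36 had 219 and 257 CPM in the shallowest and 133 and 139 CPM in the deepest bin, and Btg2 had 403 and 493 CPM and 288 and 319 CPM. Neutrophil markers summed to 1250.0 and 1449 CPM in the shallowest and 3568 and 7467 CPM in the deepest bin. The part of depth in the splits above was not tested beyond the values given without the deepest cells.

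**Figure D5:**
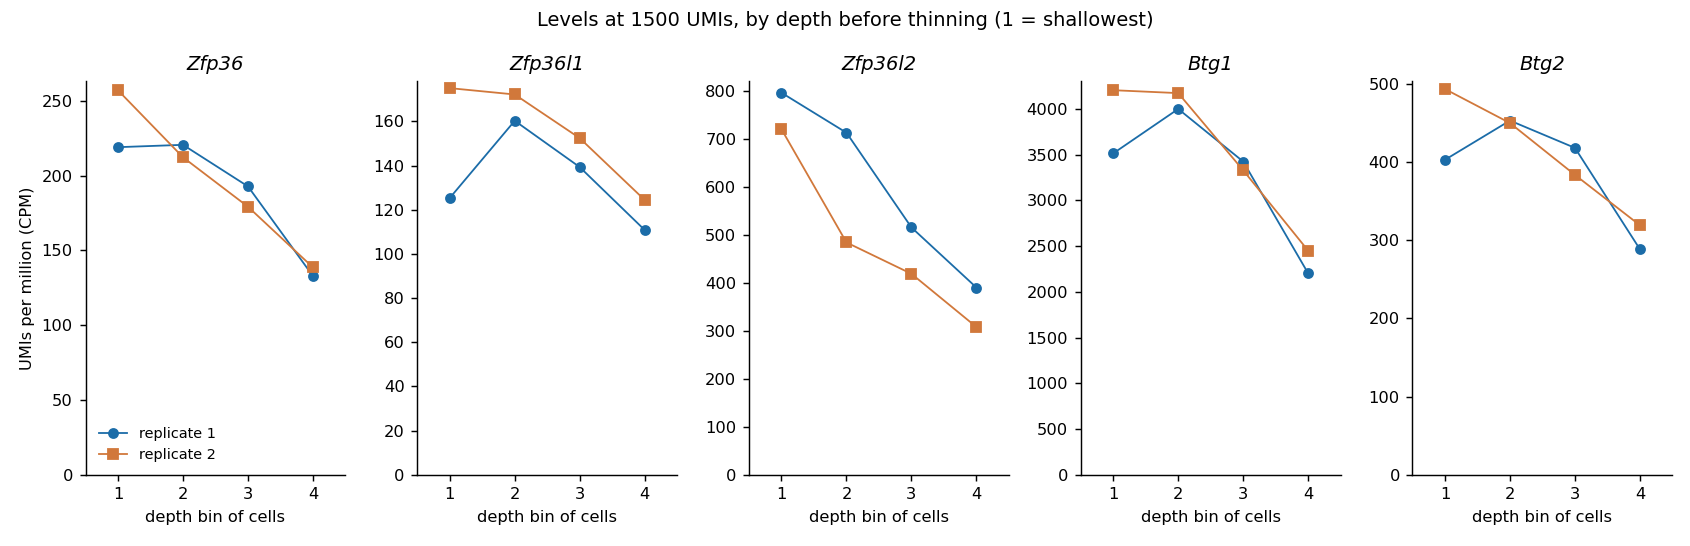
Level of each gene (CPM at 1500 UMIs a cell, linear axis from 0) in 4 equal bins of cells ranked by their UMIs before thinning, 1 line per replicate. Zfp36l2 is at 796 and 720.2 CPM in the shallowest and 390.2 and 308 CPM in the deepest bin.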

How the data were processed

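Single-cell 3' RNA was measured in 2 replicate pools, each with an expression library and a hashtag library. The matrices hold raw UMI counts per gene and barcode, made with Cell Ranger 3.1.0 on mm10 per the submitters' processing notes and deposited by the authors without normalization. The hashtag matrices listed genes and 0 hashtags and were not used here. Files and samples were matched by the labels, and barcodes were filtered as given in the report: 48 and 41 barcodes without a Cd3 UMI were removed. No doublets were called, and 1 alternative leaves out the deepest 8% of cells instead.

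Thinning drew 1500 UMIs of each cell at random. That depth was chosen in steps of 500 UMIs as the highest which 80% of cells or more reached in each library. UMI counts were summed per replicate and class and compared with edgeR 4.0.16 (TMM, filterByExpr, glmQLFit and glmQLFTest, Benjamini-Hochberg over all genes tested, R 4.3.3), where each library formed a block because it holds cells of both sides of a split. Genes that define a split were left out of its test. CPM in all paragraphs are plain shares of UMIs, and those beside a log2 difference leave out the genes that define the split. The TMM factors enter only the log2 differences. The procedure was tested on simulated data. The 2 libraries are labelled as replicates and nothing says that they came from separate animals.

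Alternatives were RLE factors, no filter, DESeq2 1.42.0, no block, no thinning, 1000 UMIs, a second thinning, other-lineage cells left out (322 and 799 cells with at least 3 such UMIs), cycling cells left out, 3 or more cycling genes and each replicate left out. Chosen after seeing the data were library totals without TMM, shared barcodes left out, the deepest cells left out and the neutrophil-rich cells. Named genes were the members, up to 4 called genes of a list with the largest difference, the 6 largest rises and falls at 50 CPM or more in each member split, and the 5 most alike genes; list genes given without values were named after their values were seen. The members and all gene lists were chosen with earlier results of these data known. Precision is limited by UMI counting and by the 2 libraries, and library totals were 89427990 and 108082997 UMIs. Sequences came from GENCODE vM21 and RefSeq tables, read with Python 3.11.15.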

Additional observations from a re-analysis of the deposited data

How the results depend on the processing

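The log2 differences of the 5 members in the splits by Tcf7, Itgae and Cd8a, Ifng, Il13 or Csf2 and cycling counted as kept in 333 of 350 recomputed values. Of the rest, 15 values missed the threshold and 2 reversed. Kept meant the same direction and side of the threshold, or not called in either fit. Values with 1 replicate left out have no side of the threshold. They counted as kept within 1 standard deviation of those 2 values from the fit of both. A fit lying between the 2 nearly always meets that bound, so these values say little about robustness. Without the replicate block, in the Tcf7 split Zfp36 (0.37), Zfp36l1 (0.47), Btg1 (0.14) and Btg2 (0.31) were not called, nor were Btg1 for Itgae-Cd8a (-0.17), Zfp36l1 and Zfp36l2 for Ifng (0.30 and 0.26), Zfp36l1 and Zfp36l2 for Il13 or Csf2 (0.32 and 0.26) and Zfp36l2 for cycling (-0.33). That fit leaves the difference between the libraries in the residual. The other losses were Zfp36 and Btg1 for Tcf7 at 1000 UMIs (0.21 and 0.061), Btg1 for Tcf7 with cycling cells left out (0.062), Zfp36l1 for Il13 or Csf2 in DESeq2 (0.33) and Zfp36l2 for cycling without the deepest 8% of cells (-0.15); the cause was not tested. Reversed values were Zfp36l1 for Itgae-Cd8a with replicate 2 left out (-0.10, against 0.11 with replicate 1 left out, where it was not called in the fit of both), Zfp36l2 for Ifng without thinning (-0.025) and Btg1 in the Zfp36l2 split without thinning (-0.019). With 1 replicate left out there is no residual degree of freedom, so those are values with no test.

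The number of genes called was 928 for Tcf7, 3918 for Itgae-Cd8a, 1692 for Ifng, 2019 for Il13-Csf2, 4319 for cycling, 1125 for Zfp36, 816 for Zfp36l1, 2952 for Zfp36l2, 3558 for Btg1, 2130 for Btg2 and 32 for the interaction. Numbers more than 1.5 times away follow. Without the block they were 207 for Tcf7, 2301 for Itgae-Cd8a, 186 for Ifng, 857 for Il13-Csf2, 77 for Zfp36, 27 for Zfp36l1, 453 for Zfp36l2, 171 for Btg2 and 0 for the interaction. With DESeq2 they were 275 for Tcf7, 1191 for Itgae-Cd8a, 321 for Ifng, 603 for Il13-Csf2, 1630 for cycling, 190 for Zfp36, 133 for Zfp36l1, 593 for Zfp36l2, 1454 for Btg1, 375 for Btg2 and 15 for the interaction. Without thinning they were 3186 for Tcf7, 7226 for Itgae-Cd8a, 1110 for Ifng, 6568 for cycling, 1240 for Btg1, 801 for Btg2 and 77 for the interaction. At 1000 UMIs they were 540 for Tcf7, 2287 for Itgae-Cd8a, 1071 for Ifng, 1221 for Il13-Csf2, 561 for Zfp36 and 7 for the interaction. Without the deepest cells they were 1085 for Ifng, 2276 for cycling, 1821 for Btg1, 1351 for Btg2 and 21 for the interaction. The number was 1108 for Ifng without cycling cells, 56 for the interaction without the low-count filter and 10 for the interaction without other-lineage cells. The share of called genes that were higher was 57.3% for Ifng, against 36.4% with library totals, and 61.2% for Zfp36, against 50.6%. With 2 libraries of pooled compartments, neither animals nor tissues could be compared.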
